A study of Mus musculus with 4 samples.

Results

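Accessible chromatin was described at 4 mouse genes through which bone-forming stromal cells signal to osteoclasts, namely Tnfsf11, Tnfrsf11b, Csf1 and Vdr. Every peak of the common ATAC-seq peak list that overlapped one of these genes, or the 75 kb upstream of its start in the GENCODE vM21 annotation, was taken as a member. This gave 52 of 117282 peaks, with 12 at Tnfsf11, 13 at Tnfrsf11b, 10 at Csf1 and 17 at Vdr. Of these, 18 touched the gene itself and 34 lay wholly upstream. No filter on low values was applied, so all 52 peaks were tested. ATAC-seq uses a transposase that inserts sequencing adapters into open DNA, so a higher value at a peak means more accessible chromatin. The 4 libraries came from MSCs (mesenchymal stem cells) of mice, 2 from old animals aged 18 to 22 months and 2 from young animals aged 3 to 5 months, and the cells of both groups had been cultured at 2% O2 in αMEM with 10% FBS. Strain, sex and tissue of origin are not given in the sources used here, and no genetic change or drug is named there for either group. The labels do not say whether 2 samples of a group came from separate mice. The p-values below then measure the spread between these samples, which may be technical.

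RANKL, encoded by Tnfsf11, is the membrane-bound or shed ligand that drives osteoclast formation by binding RANK on osteoclast precursors. Osteoprotegerin, encoded by Tnfrsf11b, is a secreted decoy receptor that captures RANKL, so the balance of both proteins sets how many osteoclasts form. M-CSF, encoded by Csf1, keeps the precursors alive and proliferating, and the vitamin D receptor, encoded by Vdr, is a nuclear receptor that raises Tnfsf11 transcription in stromal cells when its hormone is bound. Transcription of Tnfsf11 is known to depend on enhancers far upstream of its start, and Vdr is known to carry enhancers within its introns.

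On GRCm38, the assembly that mm10 names, all 4 genes lie on the minus strand, so upstream means higher coordinates. Tnfsf11 (ENSMUSG00000022015.8) spans chr14:78277445-78308043, Tnfrsf11b (ENSMUSG00000063727.3) spans chr15:54250619-54278484, Csf1 (ENSMUSG00000014599.10) spans chr3:107741048-107760469 and Vdr (ENSMUSG00000022479.15) spans chr15:97854425-97910630. The sequences below are reference sequence from the RefSeq GRCm38.p6 genome. The first 3 are the 200 bases just before the starts of the ligands and the decoy receptor, where each gene has a peak, and capitals mark an exact match to the Runx letters TGTGGT or their reverse complement.
Tnfsf11 promoter, chr14:78308044-78308243, minus strand: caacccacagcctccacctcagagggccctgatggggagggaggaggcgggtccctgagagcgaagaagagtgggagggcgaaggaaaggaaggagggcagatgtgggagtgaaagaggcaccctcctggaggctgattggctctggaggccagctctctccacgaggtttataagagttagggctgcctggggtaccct
Tnfrsf11b promoter, chr15:54278485-54278684, minus strand: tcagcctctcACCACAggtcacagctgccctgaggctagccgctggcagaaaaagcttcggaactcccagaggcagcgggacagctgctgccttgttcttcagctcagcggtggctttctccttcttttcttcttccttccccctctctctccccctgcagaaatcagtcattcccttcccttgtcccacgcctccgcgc
Csf1 promoter, chr3:107760470-107760669, minus strand: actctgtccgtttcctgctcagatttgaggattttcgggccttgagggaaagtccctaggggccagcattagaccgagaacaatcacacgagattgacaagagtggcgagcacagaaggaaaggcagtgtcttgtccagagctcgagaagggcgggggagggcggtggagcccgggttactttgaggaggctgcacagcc

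The next 4 are the central 300 bases of distal peaks described below, none of which passed the test of old against young. They are the Vdr peak with the smallest p-value, the densest intronic and the densest upstream peak of Tnfsf11, and the upstream Tnfrsf11b peak with the largest positive difference. The Vdr peak, labelled intronic below, covers a short exon as well as intron. Capitals mark exact matches to TGACTCA (AP-1), TGACGTC (a cyclic AMP response element, CRE) or TGTGGT (Runx) on either strand.
Vdr intronic peak, 21.9 kb inside the gene start, chr15:97887751-97888050, plus strand: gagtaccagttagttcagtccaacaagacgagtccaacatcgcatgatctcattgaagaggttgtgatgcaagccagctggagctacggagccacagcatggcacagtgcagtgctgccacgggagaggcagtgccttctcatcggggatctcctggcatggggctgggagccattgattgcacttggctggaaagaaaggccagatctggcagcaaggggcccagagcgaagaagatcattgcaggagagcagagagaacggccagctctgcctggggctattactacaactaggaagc
Tnfsf11 intronic peak, 12.7 kb inside the start, chr14:78294451-78294750, plus strand: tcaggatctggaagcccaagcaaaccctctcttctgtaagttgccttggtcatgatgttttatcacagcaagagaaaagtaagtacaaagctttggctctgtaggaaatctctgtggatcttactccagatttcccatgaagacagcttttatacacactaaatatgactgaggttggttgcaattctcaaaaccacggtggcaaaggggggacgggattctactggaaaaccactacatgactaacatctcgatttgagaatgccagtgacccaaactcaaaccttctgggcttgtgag
Tnfsf11 upstream peak, 21.6 kb before the start, chr14:78330551-78330850, plus strand: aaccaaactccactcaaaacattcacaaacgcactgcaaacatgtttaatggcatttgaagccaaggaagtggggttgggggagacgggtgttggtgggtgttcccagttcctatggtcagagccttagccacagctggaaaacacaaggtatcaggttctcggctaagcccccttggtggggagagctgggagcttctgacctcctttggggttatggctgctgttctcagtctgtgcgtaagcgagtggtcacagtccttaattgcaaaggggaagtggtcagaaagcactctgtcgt
Tnfrsf11b upstream peak, 17.9 kb before the start, chr15:54296601-54296900, plus strand: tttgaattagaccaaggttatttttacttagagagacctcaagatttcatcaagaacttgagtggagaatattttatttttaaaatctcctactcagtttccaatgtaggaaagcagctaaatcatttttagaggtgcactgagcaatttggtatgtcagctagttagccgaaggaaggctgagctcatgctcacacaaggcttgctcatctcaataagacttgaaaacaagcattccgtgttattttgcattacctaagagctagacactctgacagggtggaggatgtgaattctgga

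Of these 7 sequences, the Tnfrsf11b promoter held a match, to the Runx letters. In the central 300 bases of the 52 peaks, a CRE match occurred in 2 (3.85%), both at Vdr, against 1.104% of 117276 peaks with sequence. An AP-1 match occurred in 7 members (13.5%) against 16.1% of all peaks, and a Runx match in 10 (19.2%) against 26.0%. The E-box letters CANNTG were found in 43 members (82.7%) and in 79.1% of all peaks. A direct repeat of AGGTCA or of GGTTCA with 3 bases between the copies, the type of element that binds the vitamin D receptor, was found in 0 of 52 members and in 8 of 117276 peaks. These are descriptions of letters in fixed windows, and the repeat was too rare as spelled to compare. In the 200 bases before the start of 32851 RefSeq promoters, 11.2% held the Runx letters, 2.58% the CRE letters and 3.66% the AP-1 letters. A RefSeq promoter was matched for Tnfsf11, Csf1 and Vdr and not for Tnfrsf11b, whose printed sequence was read from the genome at the GENCODE start.

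The values are counts scaled to the library total and divided by RLE factors, which set the median ratio between samples to 1. They are called scaled values, and a density is a scaled value per kb of peak. Library totals, computed under an assumed multiplier of 10000000, lay between 28259470 and 32559794 counts, and 3 counts corresponded to deposited values of 0.921 to 1.06. Old replicate 2 stood apart in mitochondrial signal, at 6.52% of summed values against 13.5% to 15.7% in the other 3 libraries. Log2 values correlated across peaks, which are not independent replicates, with r = 0.971 between the young and 0.955 between the old samples. Between old and young samples the lowest r was 0.924. Without the RLE factors the median of all peaks was 0.27 lower on the log2 scale in old MSCs (log2 fold change -0.27), so the differences below are relative to that shift. By sign, 25 of 52 members were lower in old MSCs with RLE factors, 45 without them and 19 after scaling to equal total signal.

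The label of the cells was checked at gene starts. Here and in the ranking below, the start peak of a gene was the densest peak within 1 kb of any of its annotated coding starts. All 12 stromal markers examined, Pdgfra, Ly6a, Prrx1, Cd44, Eng, Thy1, Nt5e, Itgb1, Lepr, Cxcl12, Col1a1 and Col1a2, had a start peak, with a median density of 19.5. Of 9 leukocyte and osteoclast lineage markers 6 had one, while the pan-leukocyte gene Ptprc, the myeloid gene Itgam and the lymphoid gene Cd3e had none. The 6 had a median density of 18.3, led by Oscar (44.0) and Ctsk (36.1) of the osteoclast lineage and including Csf1r (21.3), while the stromal genes Eng and Lepr were at 6.42 and 8.51. The densities of both lists overlapped. A density leaves out peak width, which differed widely: 48700 bp at Col1a2 and 800 bp at Lepr, and 1700 bp at Oscar. The summed scaled values of those 6 start peaks were 321 and 421 in the old and 340.1 and 346 in the young samples. For the 12 stromal start peaks the sums were 4058.5 and 4733 in old and 3948 and 4064 in young samples. The erythroid gene Klf1 had a start peak, with scaled values of 52.1 and 54.9 in old and 58.1 and 39.5 in young samples. Of the endothelial markers, Pecam1 had one (7.32 to 9.45 in old and 7.63 to 9.79 in young samples) and Cdh5 had none. No marker passed the test of old against young. The part of other cells in the values below was not tested. In bulk libraries, a change in the share of cells with an open site and a change in openness per cell cannot be told apart.

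The starts of all 4 coupling genes were accessible or lay beside an accessible peak. The start peak had a density of 24.3 at Tnfsf11, 38.2 at Tnfrsf11b and 41.7 at Csf1. The start of Vdr was not itself in a peak, but a peak ending 0.93 kb inside it held 2 further annotated coding starts of Vdr and had a density of 28.1. Of 21842 protein-coding genes 15332 had a start peak, with a median density of 31.4. Among these, Tnfsf11 stood at the 35.1st percentile, Vdr at the 43.0th, Tnfrsf11b at the 62.6th and Csf1 at the 68.2nd. For Vdr this ranks the peak over its other starts.

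**Figure D1:**
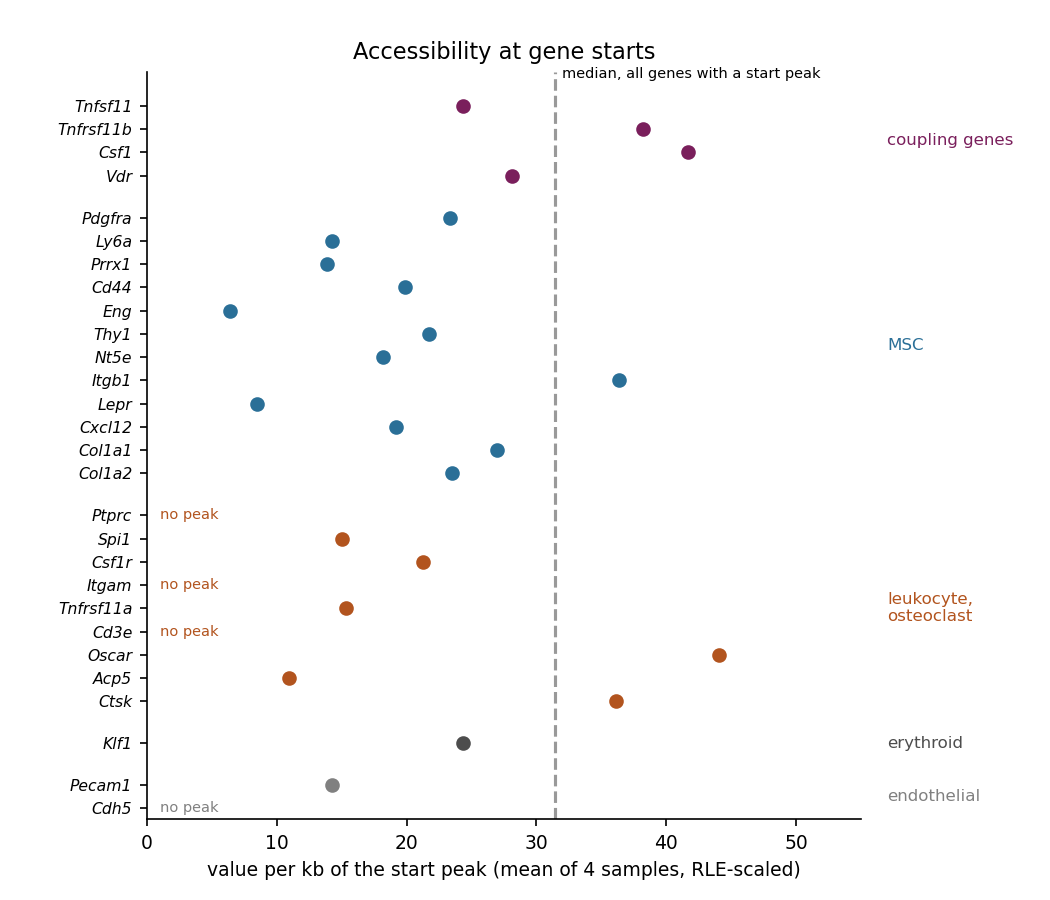
Density of the start peak (RLE-scaled value per kb, mean of 4 samples) of the 4 coupling genes and of marker genes, one point per gene, with the median of all protein-coding genes that have a start peak as a dashed line (31.4). Csf1 and Tnfrsf11b lie above that median, Tnfsf11 and the nearest peak to the start of Vdr lie below it, and 3 of 9 leukocyte and osteoclast lineage markers have no start peak.

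The loci differed in how much of their length was open. Csf1 lay entirely within a single peak of 36000 bp, chr3:107726601-107762600, and only 52 of all peaks were wider. Peaks covered 28.6% of Tnfsf11, 21.5% of Tnfrsf11b and 29.1% of Vdr. In the 75 kb upstream, peaks covered 69.8% at Csf1, 22.0% at Vdr, 11.6% at Tnfrsf11b and 11.3% at Tnfsf11. The median member was 1450 bp wide with a density of 15.3 and a GC content of 46.2%, beside 1200 bp, 13.3 and 46.1% over all peaks. The upstream peaks of Tnfsf11 had a median density of 23.6 and those in its gene 17.8, whereas the order was the opposite at Tnfrsf11b, with 13.0 upstream and 16.8 in the gene.

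**Figure D2:**
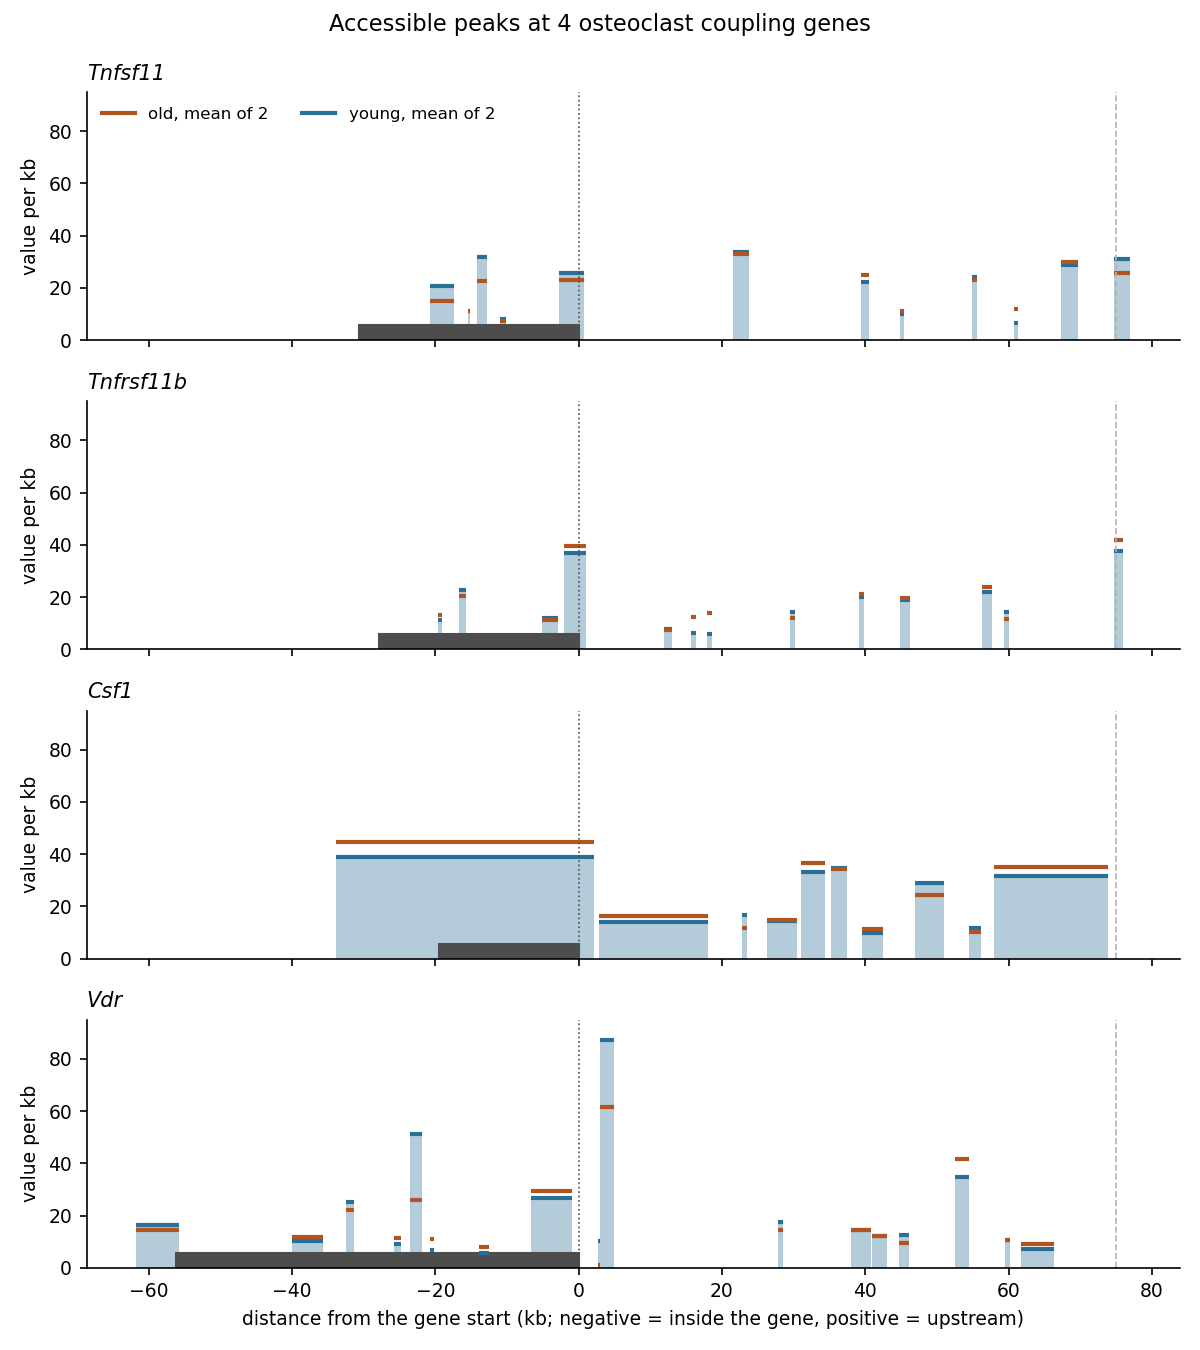
Density (RLE-scaled value per kb) of each of the 52 peaks against its distance in kb from the gene start, with brown lines for the mean of the 2 old and blue lines with shading for the mean of the 2 young samples. The dark bar is the gene, the dotted line its start and the dashed line the 75 kb limit. Csf1 sits in 1 peak of 36000 bp, and the densest peak of all lies 2.97 kb upstream of Vdr.

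For the question whether these loci differed between ageing and young MSCs, each peak was tested with limma on log2 of the scaled value plus 1, with Benjamini-Hochberg adjustment over all 117282 peaks and a threshold of 0.01. None of the 52 peaks passed in either direction. Over all peaks, 0.0307% passed as lower and 0.0256% as higher in old MSCs, or 0.0563% in either direction, so 0 of 52 is near the background. At an unadjusted p under 0.05, 5 members (9.62%) were lower, beside 8.87% of all peaks, and 1 (1.92%) was higher, beside 7.49%, or 6 (11.5%) beside 16.4% in either direction. With limma-voom on the recovered counts, 0 members passed as well. In 13 members (25%) both old samples lay below both young samples, beside 24.2% of all peaks. In 8 (15.4%) both lay above, beside 23.2%, so the groups did not overlap in 40.4% of members and in 47.5% of all peaks. The median log2 fold change, old minus young, was 0.011 over the members and 0.0011 over all peaks. The absolute log2 fold change was below 0.3 in 38 of 52 peaks.

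**Figure D3:**
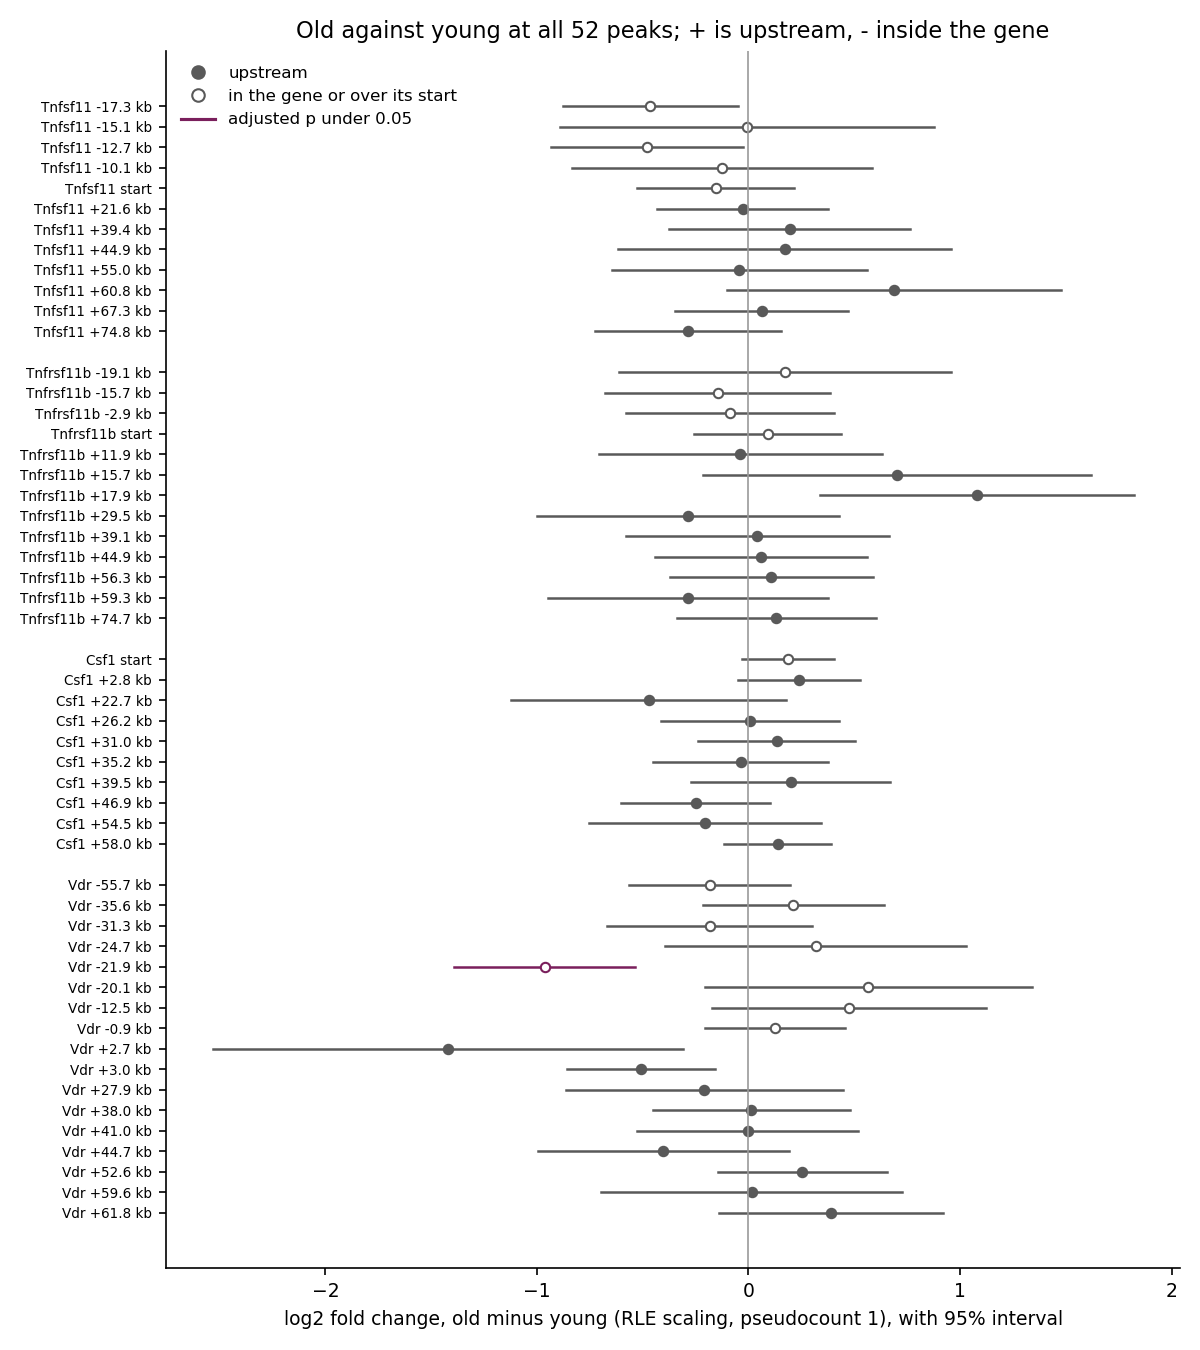
Log2 fold change, old minus young, of all 52 peaks with its 95% interval from limma, ordered by position within each gene and labelled by distance from the gene start. Filled points are upstream, open points touch the gene, and the Vdr peak 21.9 kb inside the gene is the only one with an adjusted p under 0.05.

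Tnfsf11, which encodes RANKL, had 5 peaks in the gene and 7 upstream. The peak over the start, chr14:78305301-78308800, had scaled values of 77.9 and 83.3 in old replicates 1 and 2, and 88.2 and 91.4 in young replicates 1 and 2. The groups did not overlap, as in 47.5% of all peaks, and the difference was small (log2 fold change -0.16, SE 0.18, 95% interval -0.53 to 0.22, limma adjusted p = 0.710). All 5 peaks in the gene had a fold change below 0, beside 49.9% of all peaks, and in 4 of them both old samples lay below both young ones, beside 24.2% of all peaks. None of the 5 passed the test, and neighbouring peaks of 1 gene in the same 4 libraries are not independent replicates. The median of the 5 was -0.16. The count was 4 of 5 after scaling to equal total signal, after quantile normalization, after correction for GC content and width, without old replicate 2 and without young replicate 1, since the weakest of the 5 had a fold change near 0.

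The densest intronic peak of Tnfsf11, chr14:78293901-78295300, had values of 30.1 and 33.5 in old and 45.8 and 43.6 in young samples. It lay 12.7 kb inside the start. The young values were 1.404 times the old ones on average (log2 fold change -0.48, SE 0.22, limma adjusted p = 0.278). Another intronic peak, chr14:78287301-78290700, outside the rule for named peaks and chosen after its values were seen, had values of 51.2 and 50.01 in old and 64.4 and 76.6 in young samples (log2 fold change -0.46, SE 0.20, limma adjusted p = 0.247). Neither of these passed the test. The other 2 intronic peaks were weak, with scaled values between 2.74 and 7.72.

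Upstream of Tnfsf11, 3 peaks had a fold change below 0 and 4 above, with a median of 0.062. Nearest to the start, at 21.6 kb, the densest of them (density 33.3) had values of 65.0 and 80.5 in old and 79.6 and 68.3 in young samples. The groups overlapped and the log2 fold change was -0.03 (SE 0.19, limma adjusted p = 0.962). The peak at 39.4 kb had values of 23.2 and 31.7 in old and 30.2 and 18.4 in young samples, again overlapping. At 44.9 kb the values were 5.16 and 6.10 in old and 3.98 and 5.94 in young samples. At 54.96 kb they were 14.2 and 18.0 in old and 13.3 and 20.48 in young samples. The samples of both groups were interleaved at each of these peaks.

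At 60.8 kb upstream of Tnfsf11 a weak peak, chr14:78368801-78369400, had values of 5.59 and 8.54 in old and 3.98 and 3.86 in young samples. It was the only upstream Tnfsf11 peak at which both old samples lay above both young samples, and its log2 fold change of 0.69 (SE 0.38, limma adjusted p = 0.376) did not pass. At 67.3 kb the values were 78.7 and 65.6 in old and 62.03 and 76.3 in young samples (log2 fold change 0.06). The peak at 74.8 kb, just inside the limit, had 46.5 and 67.1 in old and 68.0 and 68.6 in young samples (log2 fold change -0.29, SE 0.21). The old samples were below the young ones there, and old replicate 1 stood lowest. Without it the log2 fold change was -0.025, and without old replicate 2 it was -0.55. The next peak beyond the limit, 87.8 kb upstream, had 16.4 and 14.03 in old and 25.9 and 24.9 in young samples (log2 fold change -0.71, SE 0.25) and is not counted among the members.

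Csf1, which encodes M-CSF, had the largest signal of the 4 genes. Its gene-wide peak, which holds all 6 annotated coding starts, had scaled values of 1415 and 1787 in old and 1355 and 1445 in young samples. Old replicate 2 stood above the other 3 libraries, old replicate 1 lay between both young samples, and the groups overlapped (log2 fold change 0.18, SE 0.10, 95% interval -0.03 to 0.40, limma adjusted p = 0.391). Without old replicate 1 the same peak had a log2 fold change of 0.35, and the wide peak 58.0 kb upstream had 0.28. Without old replicate 2 the log2 fold changes of these peaks were 0.02 and -0.0031. In each of these fits the remaining old sample stands alone and is assumed to vary like the young samples, so their p-values are not given.

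Among the 9 upstream peaks of Csf1, 4 had a fold change below and 5 above 0, from -0.47 to 0.24. The densest, 31.0 kb upstream, had values of 112 and 136 in old and 127 and 100.02 in young samples (log2 fold change 0.13, limma adjusted p = 0.758). Both old samples lay below both young samples at 3 upstream peaks and above them at 2 of 9, beside 24.2% and 23.2% of all peaks. The lowest fold change belonged to the weakest peak, 22.7 kb upstream, with 7.32 and 8.84 in old and 10.9 and 12.2 in young samples (SE 0.31, limma adjusted p = 0.476). The wide peak 58.0 kb upstream, chr3:107818501-107834300, overlapped the noncoding gene Gm36211 and was the last one inside the limit. The nearest peak outside it, at 79.6 kb, had 59.8 and 88.4 in old and 59.4 and 66.2 in young samples (log2 fold change 0.21).

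**Figure D4:**
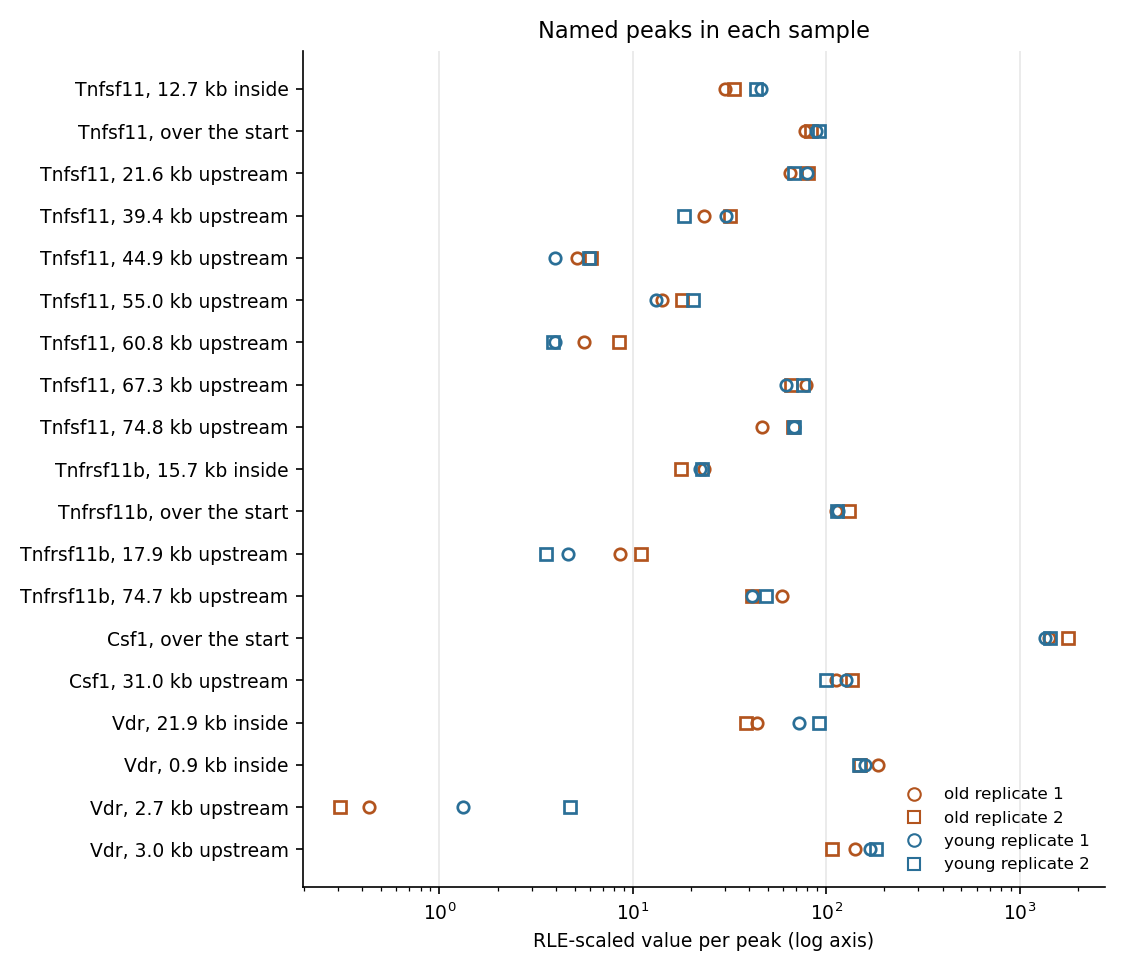
RLE-scaled values of the 19 named peaks in each of the 4 samples on a log axis, with old samples in brown and young samples in blue, circles for replicate 1 and squares for replicate 2. Old and young samples are separated at both the Vdr peak 21.9 kb inside the gene and the Vdr peak 2.97 kb upstream, and interleaved at most upstream Tnfsf11 peaks.

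Tnfrsf11b, which encodes the decoy receptor osteoprotegerin, differed little between the ages. Its start peak, chr15:54276401-54279500, had values of 113 and 132 in old and 116 and 113 in young samples. The groups overlapped (log2 fold change 0.09, SE 0.17, limma adjusted p = 0.834). Its densest intronic peak, 15.7 kb inside the start, had 23.2 and 17.7 in old and 22.2 and 22.9 in young samples. The densest upstream peak lay 74.7 kb before the start, just inside the limit, with 59.0 and 41.2 in old and 41.1 and 49.0 in young samples (log2 fold change 0.13, SE 0.22). Its density of 39.6 exceeded that of the start peak. The next peak outside, at 107.9 kb, had 23.2 and 10.4 in old and 16.6 and 16.03 in young samples.

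The largest positive difference among the 52 peaks with separated groups was at the Tnfrsf11b peak 17.9 kb upstream, chr15:54296401-54297100. Its values were 8.61 and 10.98 in old and 4.64 and 3.56 in young samples, from 20 and 36 counts in old and 14 and 12 counts in young samples. The old values were 2.39 times the young ones on average, and the difference did not pass (log2 fold change 1.08, SE 0.35, limma adjusted p = 0.131). The peak 15.7 kb upstream had 4.30 and 13.1 in old and 5.64 and 3.26 in young samples, so there the mean of the old group rested on old replicate 2. Over all 13 peaks the median log2 fold change was 0.06, with pairwise medians from -0.01 to 0.06, and it was -0.02 without old replicate 1.

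Vdr held both the member with the smallest p-value and the member with the highest density. The peak chr15:97887101-97888700, 21.9 kb inside the gene start, covers intron and a short exon with 5′ UTR. Its scaled values were 43.9 and 38.7 in old and 72.0 and 92.005 in young samples, from 102 and 127 counts in old and 217 and 310 counts in young samples. Both old samples lay well below both young ones, with the young values 1.98 times the old ones on average. The log2 fold change was -0.96 (SE 0.20, 95% interval -1.39 to -0.54) with a limma adjusted p of 0.0312, which misses the threshold of 0.01 and lies under 0.05. At 0.05, 0.771% of all peaks were lower and 0.351% higher, and this was the only one of 52 members.

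The side of the threshold on which this Vdr peak fell depended on single libraries, and so did the number of calls over all peaks. More peaks passed without an old library and fewer without a young one. Across these 4 fits the log2 fold change of this Vdr peak stayed between -1.14 and -0.79. In each of them a lone sample is assumed to vary like the other group, so their p-values are not given for this peak. The log2 fold change was -1.25 with the values as deposited (limma adjusted p = 0.00571) and -0.90 with equal total signal (limma adjusted p = 0.0589).

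The densest member was chr15:97913601-97915600, 2.97 kb upstream of Vdr, with a density of 74.5 that exceeded 99.1% of all peaks. Its values were 140.3 and 107 in old and 168 and 181 in young samples. The groups did not overlap and old replicate 2 was lowest (log2 fold change -0.51, SE 0.17, limma adjusted p = 0.134). Without old replicate 1 the log2 fold change was -0.70, and without old replicate 2 it was -0.31. A peak of 300 bp that abuts it, chr15:97913301-97913600, had 1 count in each old sample and 4 and 16 counts in the young ones. Its log2 fold change was -1.42 (SE 0.53, limma adjusted p = 0.186). This peak was named as 1 of the 2 largest falls, so the size of its fall is a selected value. With 1 count in each old library, it may be on the peak list only through the young samples.

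The peak beside the start of Vdr, chr15:97904001-97909700, had 185 and 150.04 in old and 158 and 148 in young samples (log2 fold change 0.12, SE 0.16, limma adjusted p = 0.746). The groups overlapped. Of the 8 peaks in the gene, 3 had a fold change below and 5 above 0, and of the 9 upstream, 5 below and 4 above. The remaining peaks of the locus had fold changes from -0.40 to 0.57, with a lowest limma adjusted p of 0.465. The upstream window of Vdr reaches Tmem106c, whose start lies in one of 2 peaks that overlap it, and Col2a1, a cartilage collagen gene overlapped by 1 peak. The median over the 17 peaks was 0.01, and -0.09 without these 3 peaks. The peak just inside the limit, 61.8 kb upstream, had 43.0 and 41.2 in old and 42.1 and 24.04 in young samples, and the next outside, at 78.9 kb, had 123 and 103 in old and 119 and 116 in young samples.

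Summed over the peaks of each locus, the scaled values did not overlap between the age groups at Tnfsf11 and Tnfrsf11b. Single peaks did so in 47.5%, but a sum pools several peaks, and the share for sums was not computed. For Tnfsf11 the sums were 408 and 453 in old and 470.1 and 484 in young samples, or 431 ± 31.9 and 477 ± 9.90 (SD, n = 2 each). For Tnfrsf11b they were 345 and 345 in old and 321 and 328 in young samples. The deposited values of Tnfrsf11b, without RLE factors, summed to 280.1 and 348 in old and 343 and 376 in young samples, so that there the groups overlapped and the old mean was lower. The separation at Tnfsf11 depended on scaling too. With equal total signal, old replicate 2 had the highest Tnfsf11 sum and the groups overlapped. For Csf1 the sums were 2537 and 3107 in old and 2513 and 2566 in young samples, and for Vdr 804 and 686 in old and 834 and 785 in young samples, with overlapping groups at both. The summed Tnfsf11 signal was 1.18 and 1.31 times that of Tnfrsf11b in old replicates 1 and 2, and 1.46 and 1.47 times in young replicates 1 and 2. This ratio was lower in both old samples, with a mean log2 difference of -0.24. Leaving out single samples gave -0.31 to -0.16, and counting peaks up to 25 kb upstream gave -0.34. No p is given, because the smallest p that exact permutation of 2 against 2 samples allows is 0.33. The share of other pairs of loci with a ratio separated this way was not computed. Among single peaks, both old samples lay below both young samples in 24.2%. The ratio describes accessibility at both loci, not levels of the proteins.

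**Figure D5:**
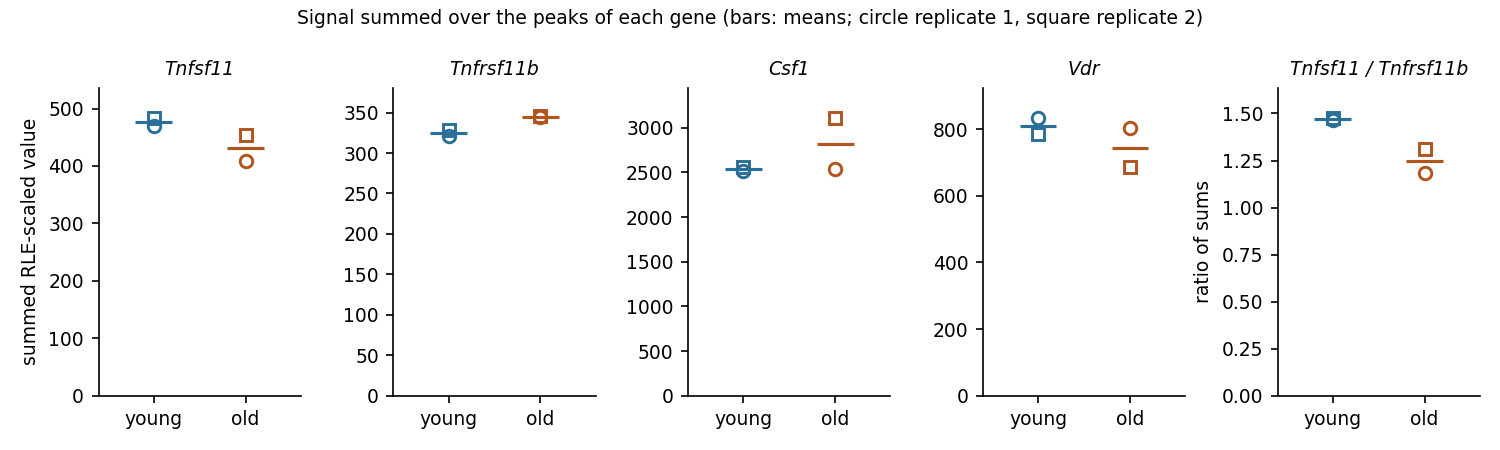
Summed RLE-scaled value over the peaks of each gene in each sample, and the ratio of the Tnfsf11 to the Tnfrsf11b sum, with circles for replicate 1, squares for replicate 2 and lines for the mean of 2. The ratio is 1.18 and 1.31 in the old and 1.46 and 1.47 in the young samples, and the Csf1 sum of old replicate 2 (3107) stands above the other 3.

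The medians per gene did not point in one direction. They were -0.04 for Tnfsf11, 0.06 for Tnfrsf11b, 0.07 for Csf1 and 0.01 for Vdr, beside 0.0011 over all peaks. Leaving out each sample in turn gave -0.13 to -0.05 for Tnfsf11, -0.02 to 0.08 for Tnfrsf11b, -0.06 to 0.21 for Csf1 and -0.19 to 0.20 for Vdr. The Tnfsf11 median thus kept its sign in these fits, but was 0.0317 after scaling to equal total signal and 0.0297 after correction for GC content and width.

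The same rule was applied to 34 other genes of osteoclast coupling, among them receptors, other ligands, prostaglandin and interleukin signalling and vitamin D metabolism, chosen by function. They had 385 peaks. Of these, 0 passed as lower and 1 as higher at an adjusted p under 0.01 (limma), beside 0.0307% and 0.0256% of all peaks. The median log2 fold change was 0.02. At an unadjusted p under 0.05, 26 peaks (6.75%) were lower and 29 (7.53%) higher, beside 8.87% and 7.49% of all peaks. The peak that rose was in an exon-containing stretch of Ptger4, the prostaglandin E2 receptor EP4, at chr15:5234401-5235300. Its values were 15.5 and 26.5 in old and 2.32 and 2.67 in young samples (log2 fold change 2.61, SE 0.35, limma adjusted p = 0.00438). The young values were low, so this peak may be on the peak list only through the old samples. Its outcome in the other fits is not reported here.

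Other genes of that list had no call, and those below were chosen after their values were seen, from a list whose shares at an unadjusted p under 0.05 lay near or below the 8.87% (lower) and 7.49% (higher) of all peaks. An Il6 peak 23.5 kb upstream, at the gene of an osteoclast-promoting cytokine, had 8.18 and 7.01 in old and 19.6 and 18.1 in young samples (log2 fold change -1.21, SE 0.29, limma adjusted p = 0.0498). Tnfrsf11a, which encodes the RANKL receptor RANK, had 3 of 8 peaks higher at an unadjusted p under 0.05 and a median of 0.43. Lgr4, which encodes another receptor for RANKL, had 4 of 26 lower and a median of -0.28. For Wnt5a, a Wnt ligand that promotes osteoclast formation, 3 of 7 peaks were lower and 1 higher, and for Rxra, the partner of the vitamin D receptor, 4 of 21 were higher. Cyp24a1 and Cyp27b1, which degrade and make the active hormone, had 0 of 7 peaks and 1 of 6 peaks (higher) at that level.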

How the data were processed

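ATAC-seq libraries of MSCs from old mice (2) and young mice (2) were analysed. Per the labels, the submitters' processing notes name Bowtie2, Picard and mm10, and the peak caller is not given in the sources used here. The values deposited by the authors under the name RPKM, with decimal commas, are a score per peak. Their steps show counts multiplied by 1 factor per sample and not divided by peak length. This factor was taken as 10000000 divided by the library total, and the 10000000 was assumed. In each sample 100% of values were whole multiples of 1 step within 0.1 counts. Under that assumption the steps gave library totals of 28259470 to 32559794 counts.

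Values were divided by RLE factors (0.813, 1.01, 1.07 and 1.15 for old 1, old 2, young 1 and young 2, from 116175 peaks above 0 in every sample), and log2(value + 1) was fitted with limma 3.58.1 in R 4.3.3 (trended, robust moderation) with Benjamini-Hochberg adjustment over 117282 peaks. Fold changes understate low peaks. The fit was tested on simulated data. A planned count test was replaced by limma-voom on the recovered counts, added after the data were seen. Python 3.11.15, numpy 2.4.6, pandas 2.3.3, pysam 0.24.0 and matplotlib 3.10.9 were used for summaries.

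Members and lists were chosen with earlier results of these data known. Named peaks were the start or nearest peak, the densest other peak in the gene and the densest upstream peak of each gene, every upstream peak of Tnfsf11, the 2 largest differences in each direction among peaks separated in all 4 pairs of samples, and the peaks at the 75 kb limit. For likeness, the 2 start peaks closest over the 4 samples were taken for each gene. Some of these genes, markers and sequences are not reported here. Results were recomputed with 3 further scalings, with a pseudocount of 0.1 or 5, without the weakest 25% of peaks, with GC and width correction, replicate blocks, plain moderation, other windows and leaving out each sample. Same-numbered samples did not deviate together (correlation of deviations -0.10).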

Additional observations from a re-analysis of the deposited data

How the results depend on the processing

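The count of member peaks lower in old MSCs at an adjusted p under 0.01 (limma) was 0, and 1 with the values as deposited, with the replicate block, with the block and GC and width correction, and at a threshold of 0.05. It was 0 to 2 when single samples were left out, as was the count of higher peaks. The single peak was the Vdr peak 21.9 kb inside the gene (with the replicate block -0.96, limma adjusted p = 0.00697; with the block and correction -1.09, limma adjusted p = 8.3e-05). Same-numbered samples share only a number, so the replicate block is not a pairing. Over all peaks the block gave 907 lower and 362 higher calls, beside 36 and 30 without it. Values as deposited gave 1333 and 52, equal total signal 7 and 15, a filter on weak peaks 7 and 8, GC and width correction 116 and 79, limma-voom 95 and 49, and plain moderation 0 and 0. The cause was not tested.

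The median over members (0.011) was -0.25 with values as deposited, 0.0757 with equal total signal, -0.0155 with a filter on weak peaks, 0.046 with GC and width correction with or without the replicate block, -0.0325 with 25 kb, -0.0871 with 5 kb upstream and -0.0636 to 0.0049 when single samples were left out. With values as deposited the medians were -0.31 (Tnfsf11), -0.22 (Tnfrsf11b), -0.21 (Csf1) and -0.27 (Vdr). With equal total signal Tnfsf11 was 0.0317 and Tnfrsf11b 0.13. Tnfsf11 was 0.0297 with GC and width correction with or without the block. It was -0.14 with 25 kb and -0.16 with 5 kb upstream, and -0.13 to -0.0467 when single samples were left out. Tnfrsf11b was 0.0022 with the filter, 0.21 with GC and width correction with or without the block, 0.0015 with 5 kb, and -0.0226 to 0.0751 when single samples were left out. The log2 ratio of Tnfsf11 to Tnfrsf11b was -0.34 with 25 kb.

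Of 19 named peaks 8 kept their sign in every fit. With values as deposited the sign turned at Tnfsf11 39.4, 44.9 and 67.3 kb upstream (-0.0813, -0.0705 and -0.22), at Tnfrsf11b at the start and 74.7 kb upstream (-0.20 and -0.15), at Csf1 at the start and 31.0 kb upstream (-0.10 and -0.15) and beside the start of Vdr (-0.16). With equal total signal it turned at Tnfsf11 21.6 and 54.96 kb upstream (0.0411 and 0.0224), and with GC and width correction, with or without the block, at 54.96 kb (0.0887). When single samples were left out, Tnfsf11 ranged from -0.18 to 0.13 at 21.6 kb, -0.15 to 0.54 at 39.4 kb, -0.0684 to 0.41 at 44.9 kb, -0.34 to 0.25 at 54.96 kb and -0.0849 to 0.21 at 67.3 kb. Tnfrsf11b ranged from -0.33 to 0.0422 at 15.7 kb inside, -0.023 to 0.20 at the start and -0.12 to 0.39 at 74.7 kb, Csf1 from -0.0357 to 0.30 at 31.0 kb, and the peak beside the start of Vdr from -0.0259 to 0.27. Of the peaks whose sign turned, the Csf1 start peak passed the threshold in 1 fit, without old replicate 1, and no other did. Depth limits the weakest member, which had 1 count in each old library.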

Other observations

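For the start peak of each gene, the protein-coding genes with the nearest values over the 4 samples were found by the root mean square distance of log2 scaled values. For Tnfsf11 these were Aifm1 (distance 0.03) and Cyp4f16 (0.04). For Tnfrsf11b, Glo1 lay at 0.02. For Csf1 they were Tnrc18 (0.10) and Plec (0.11), and for Vdr Mob1b (0.03) and Nsmaf (0.07). With 4 samples and 15332 start peaks to choose from, such distances are a description of level and pattern together.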
